A study of Mus musculus with 9 samples.

Results

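The genes described here drive the cell through DNA replication and division, or hold it back. They comprised 34 genes chosen by name: markers of dividing cells, cyclins, cyclin-dependent kinases, replication enzymes, mitotic regulators and the Cip/Kip inhibitors. Of the 34, 32 were measured among 30142 genes. Ccnd1 shared its only listed probe set with the microRNA gene Mir3962 and was left out, and Ccnb1 was not analysed here. The label of cell cycle and division genes fits the known roles of the members, but only a few of them stood clear of the array's negative controls.

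Hearts of immunodeficient nude mice were profiled on an Affymetrix expression array 6 weeks after treatment for chronic heart failure, which had been induced by permanent ligation of the left anterior descending coronary artery 3 weeks before treatment. Ves hearts (3 arrays) received the extracellular vesicles that 500000 cardiovascular progenitor cells secrete in 48 hours (vesicles are small membrane-bound particles that cells release), and Cell hearts (3 arrays) received 500000 of the progenitor cells. Ctrl hearts (2 arrays) received the medium alpha-MEM, and the Sham heart (1 array) had a needle inserted 3 times and nothing injected, so all 4 groups carry the infarct and the nude phenotype. Ves 1, Cell 1, Ctrl 1 and Sham 1 belong to an experiment numbered 9 in the titles, and Ves 2, Ves 3, Cell 2, Cell 3 and Ctrl 2 to an experiment numbered 1. The titles also carry a number after the letters VTS, which the labels do not explain (3 for all arrays of experiment 9, 2 for Ves 3 and Cell 3, and 1 for Ves 2, Cell 2 and Ctrl 2). The labels do not give strain, sex, age or the species of the progenitor cells, and do not state that each array is a separate animal, so the p-values measure only the spread between these arrays.

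In an adult heart most muscle cells have left the cell cycle, while fibroblasts, endothelial cells and immune cells keep the ability to divide. D-type cyclins with Cdk4 and Cdk6 release the E2F transcription factors in G1, cyclin E with Cdk2 opens S phase, and cyclins A and B with Cdk1 drive the cell into mitosis. Genes of late S phase and mitosis are regulated together, largely through CHR and CCAAT elements of their promoters. DREAM, B-Myb and FoxM1 complexes act at the CHR elements. Cip/Kip proteins such as p21, the product of Cdkn1a, inhibit the cyclin-dependent kinases.

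Values were log2 expression summaries, with array medians from 5.56 to 5.63. Heart muscle markers (5 of 5 measured) and endothelial markers (5 of 5) exceeded 95% of the array's negative control probe sets on all 9 arrays, and 0 of 10 T and NK lymphocyte, 0 of 3 B lymphocyte and 0 of 3 thymocyte markers did so. Vesicle array 3 stood apart by 4 lung markers, whose mean deviation was 3.04 log2 units on Ves 3, 0.21 on Sham 1 and between −0.54 and −0.41 on the other arrays. RNA came from whole hearts, so a change in the number of cells of one type and a change in RNA per cell cannot be told apart.

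Most of the cell cycle genes were measured at values that negative control probe sets also reach. The 95th percentile of these controls ran from 7.18 to 7.28 across arrays, and only Ccnd2, Cdk4 and Cdkn1a exceeded it on all 9 arrays (3 of 32, or 9.38%, against 20.1% of all genes). Cdkn1c exceeded it on 4 arrays and Ccnd3 on 2, while 27 of the 32 did so on none. Against the median of the controls, 25 of 32 were above on all 9 arrays. All 7 replication genes and all 10 mitotic regulators measured stayed below the 95th percentile on every array. The percentile reached among negative controls, as a median over arrays, was 81.2 for Mki67, 80.0 for Plk1, 66.8 for Cdk1 and 45.2 for Top2a. Values are not compared between genes here, since probe sets differ in brightness.

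**Figure D1:**
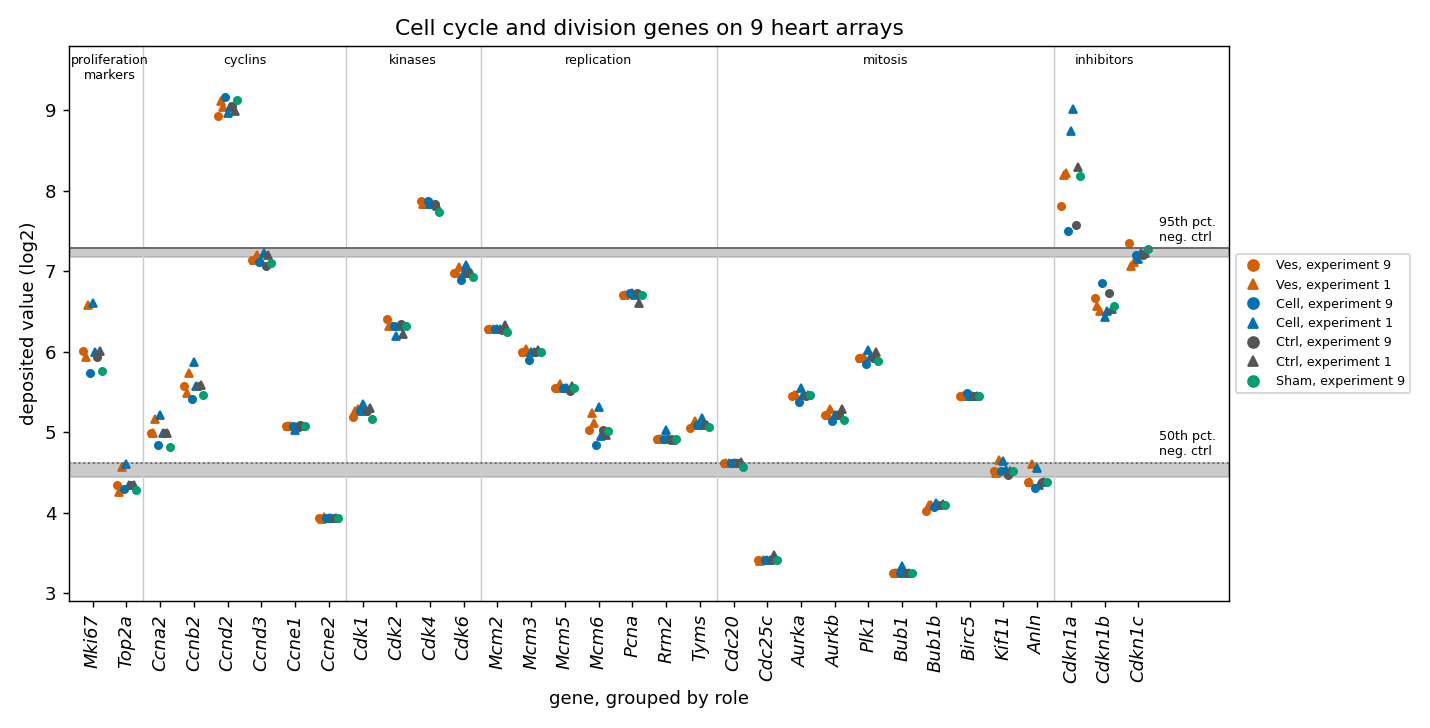
Deposited log2 values (vertical axis) of the 32 measured genes (horizontal axis, by role) on 9 arrays; colour gives the group, circles experiment 9 and triangles experiment 1, and grey bands span the 50th and 95th percentiles of negative controls across arrays. Ccnd2, Cdk4 and Cdkn1a lie above the upper band on all 9 arrays, and Cdkn1a has the widest spread.

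Many values were tied. 23 of the 32 genes (71.9%) repeated 1 value exactly on at least 3 arrays, and 17 (53.1%) did so on at least 5, against 61.1% and 30.0% of all genes, and Birc5, the survivin gene of the chromosomal passenger complex, was identical on 8 arrays. The median range over the 9 arrays was 0.16 log2 units for these genes and 0.20 for all genes. Only 2 members, Cdkn1a and Mki67, ranged over more than 0.5.

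The markers of dividing cells were high on 2 arrays, one from each treated group. Mki67, which encodes the Ki-67 antigen of proliferating nuclei (probe set TC0700004451.mm.1), had values of 6.02, 5.94 and 6.59 on the Ves arrays, 5.74, 6.60 and 6.00 on the Cell arrays, 5.94 and 6.02 on the Ctrl arrays and 5.76 on the Sham array. Ves 3 and Cell 2 stood clear of the rest, 1.56-fold and 1.58-fold above the median of the other 7 arrays, and the Ves, Cell and Ctrl groups overlapped. Top2a, the topoisomerase that untangles sister chromatids, had 4.34, 4.26 and 4.57 on Ves arrays, 4.30, 4.61 and 4.34 on Cell arrays, 4.34 and 4.34 on Ctrl arrays and 4.28 on the Sham array. The same 2 arrays were highest, by 1.17-fold on Ves 3 and 1.20-fold on Cell 2, at a level that lay near the middle of the negative controls.

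Of the mitotic cyclins, Ccna2, the cyclin of S and G2 phase, had 4.99, 4.99 and 5.17 on Ves arrays, 4.85, 5.22 and 4.99 on Cell arrays, 4.99 and 4.99 on Ctrl arrays and 4.82 on the Sham array. Ccnb2, a B-type cyclin of mitosis, had 5.57, 5.49 and 5.74 on Ves arrays, 5.41, 5.88 and 5.57 on Cell arrays, 5.57 and 5.59 on Ctrl arrays and 5.47 on the Sham array. Both were again highest on Cell 2 and next highest on Ves 3. Kif11, the kinesin that separates spindle poles, reached 4.65 on Ves 3 and 4.64 on Cell 2 against 4.47 to 4.53 elsewhere, and Anln, the anillin of the cleavage furrow, 4.60 and 4.56 against 4.31 to 4.38. These 6 genes are those whose values on Ves 3 and Cell 2 both exceeded every other array. They make up 18.8% of the 32 members, and 507 of 30142 genes (1.68%) have that order. The order was noticed in these values, so it is given as a description with no test.

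Cdk1, the mitotic kinase, and Plk1, the polo-like kinase of mitotic entry, showed less of it. Cdk1 had 5.19, 5.26 and 5.29 on Ves arrays, 5.26, 5.35 and 5.26 on Cell arrays, 5.26 and 5.30 on Ctrl arrays and 5.17 on the Sham array. Plk1 had 5.92, 5.93 and 5.93 on Ves arrays, 5.85, 6.03 and 5.95 on Cell arrays, 5.93 and 6.00 on Ctrl arrays and 5.89 on the Sham array. Cell 2 was the highest array for both, with Ctrl 2 next, and Ves 3 was not set apart. In all, Cell 2 was the single highest array for 11 of 32 members (34.4%) and Ves 3 for 5 (15.6%), against 7.03% and 7.71% of all genes.

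**Figure D2:**
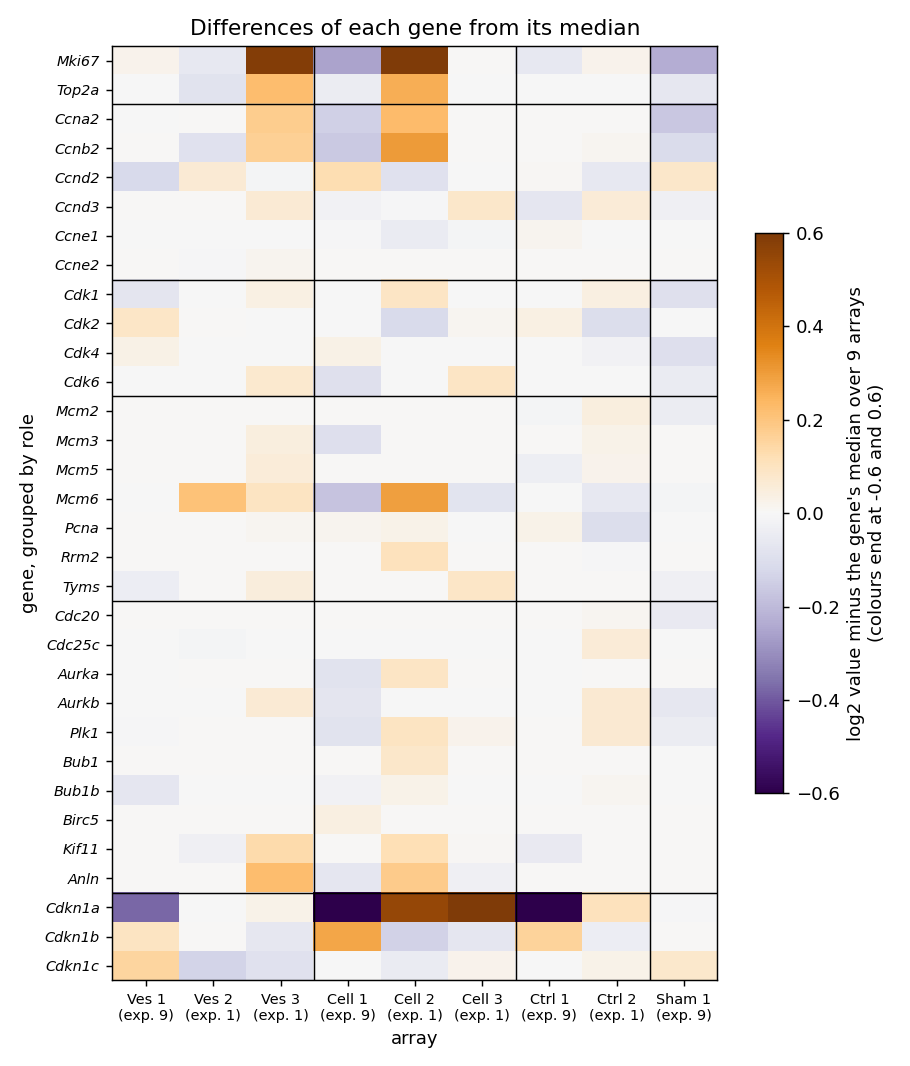
Difference of each log2 value from the gene's median over 9 arrays (colour) for 32 genes (rows, by role) and 9 arrays (columns). Ves 3 and Cell 2 are high for Mki67, Top2a, Ccna2, Ccnb2, Kif11 and Anln, and Cdkn1a is low on Ves 1, Cell 1 and Ctrl 1.

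The promoters of the genes that were highest on Ves 3 and Cell 2 are shown because such genes are known to share promoter elements. The table of RefSeq promoters (build GRCm38.p6, from 250 bases before to 50 after each start) holds 26 of the 32 members and 5 of these 6 genes. Capitals mark matches on either strand to the CHR element TTTGAA and the CCAAT box CCAAT.
Mki67 (chr7:135716330-135716629, minus strand): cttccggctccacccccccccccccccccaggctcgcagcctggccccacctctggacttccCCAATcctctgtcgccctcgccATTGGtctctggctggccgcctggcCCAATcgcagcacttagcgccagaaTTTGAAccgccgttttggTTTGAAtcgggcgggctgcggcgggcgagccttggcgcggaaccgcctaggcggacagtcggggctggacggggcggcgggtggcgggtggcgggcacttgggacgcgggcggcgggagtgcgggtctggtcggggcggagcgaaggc
Top2a (chr11:99024140-99024439, minus strand): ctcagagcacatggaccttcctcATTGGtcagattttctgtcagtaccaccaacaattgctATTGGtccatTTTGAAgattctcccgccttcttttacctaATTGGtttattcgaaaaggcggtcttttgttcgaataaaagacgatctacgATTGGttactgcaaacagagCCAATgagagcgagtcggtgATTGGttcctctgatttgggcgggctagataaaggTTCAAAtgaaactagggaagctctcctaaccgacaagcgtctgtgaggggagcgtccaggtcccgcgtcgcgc
Ccnb2 (chr9:70421505-70421804, minus strand): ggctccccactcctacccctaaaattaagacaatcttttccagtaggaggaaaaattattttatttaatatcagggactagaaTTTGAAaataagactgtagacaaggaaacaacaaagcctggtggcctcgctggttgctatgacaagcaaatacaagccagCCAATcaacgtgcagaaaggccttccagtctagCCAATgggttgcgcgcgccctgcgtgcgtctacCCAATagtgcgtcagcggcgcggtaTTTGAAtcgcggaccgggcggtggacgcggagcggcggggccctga
Kif11 (chr19:37376132-37376431, plus strand): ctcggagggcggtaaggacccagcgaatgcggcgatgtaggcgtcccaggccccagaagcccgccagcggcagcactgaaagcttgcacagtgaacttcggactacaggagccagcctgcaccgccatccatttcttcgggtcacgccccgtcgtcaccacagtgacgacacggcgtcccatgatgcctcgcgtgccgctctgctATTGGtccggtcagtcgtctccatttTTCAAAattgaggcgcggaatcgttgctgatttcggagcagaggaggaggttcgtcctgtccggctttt
Anln (chr9:22389157-22389456, minus strand): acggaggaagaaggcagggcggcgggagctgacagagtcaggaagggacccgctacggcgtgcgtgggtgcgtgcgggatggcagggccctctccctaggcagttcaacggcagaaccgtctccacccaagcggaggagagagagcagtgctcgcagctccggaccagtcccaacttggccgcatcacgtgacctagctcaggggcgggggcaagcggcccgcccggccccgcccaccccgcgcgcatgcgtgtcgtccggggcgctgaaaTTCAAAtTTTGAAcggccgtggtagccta
A CHR match was present in 5 of 5 of these promoters, in 6 of 21 promoters of the other measured members (28.6%) and in 18.1% of 27025 promoters of the table. A CCAAT match was present in 4 of 5, in 14 of 21 (66.7%) and in 37.9%. Anln was the promoter with no CCAAT match in this window. CHR and CCAAT matches overlapped in 0 of the 26 member promoters. The other measured members with a CHR match were Cdk1, Mcm2, Cdc20, Aurka, Plk1 and Bub1b, most of them mitotic. The comparison with other members thus also sets mitotic genes against G1, replication and inhibitor genes. An E2F element (TTTCGCGC, TTTGGCGC, TTTCCCGC or TTTGCCGC) was found in 0 of 5, in 5 of 21 and in 2.32% of all promoters, the 5 being Cdk1, Cdk2, Mcm3, Mcm5 and Mcm6. None of these elements was found in the window for Ccnd3, Ccne1, Cdk4, Cdk6, Tyms, Birc5 or Cdkn1a. For a gene with several starts the first listed was used, and a match is a match of letters only.

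Some genes of mitosis and cytokinesis outside the 34 had the same top pair of arrays. A list of 63 such genes was written down by name, with earlier results of these data known. Of these genes 61 were measured, and 23 (37.7%) had Ves 3 and Cell 2 as the top pair of arrays, against 1.68% of all genes. The next pair on that list, Ves 3 with Ctrl 2, was on top for 10 genes (16.4%), and it was the commonest pair among all genes (6.18%). With arrays centred on their medians the 23 became 13 of 61 (against 1.02% of all genes), and after quantile normalization 15 (against 1.67%). The 23 genes, chosen after their values were seen, were Nek2, Cenpe, Ndc80, Nuf2, Knl1, Kif4, Kif15, Kif20a, Kif20b, Kif23, Tpx2, Prc1, Ect2, Smc2, Nusap1, Hmmr, Aspm, Ckap2, Ckap2l, Cep55, Tacc3, Pbk and Shcbp1. All 23 stayed below the 95th percentile of the controls on every array and 14 lay below the controls' median on every array, so their order rests on values that do not stand clear of background, as it does for the 6 members, none of which reached the 95th percentile on any array. Their excess over the median of the other 7 arrays was small, with a median of 0.057 log2 units on Ves 3 and 0.089 on Cell 2. Prc1, which bundles the central spindle, had 4.70, 4.70 and 4.90 on Ves arrays, 4.60, 4.90 and 4.70 on Cell arrays, 4.70 and 4.68 on Ctrl arrays and 4.66 on the Sham array. Tpx2, the spindle assembly factor, had 5.38 on Ves 3 and 5.40 on Cell 2 against 5.16 to 5.21 elsewhere. Among 29 other replication genes 0 had this order, and among 18 regulators of the E2F, pocket protein and MuvB families 1 did, Rbl1. Of 5 INK4 and related inhibitors 1 did, Cdkn3. A CHR match stood in 14 of 19 promoters of the 23 genes (73.7%) and in 20 of 30 promoters of the other 38 mitotic genes (66.7%), so it was about as frequent in both.

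**Figure D3:**
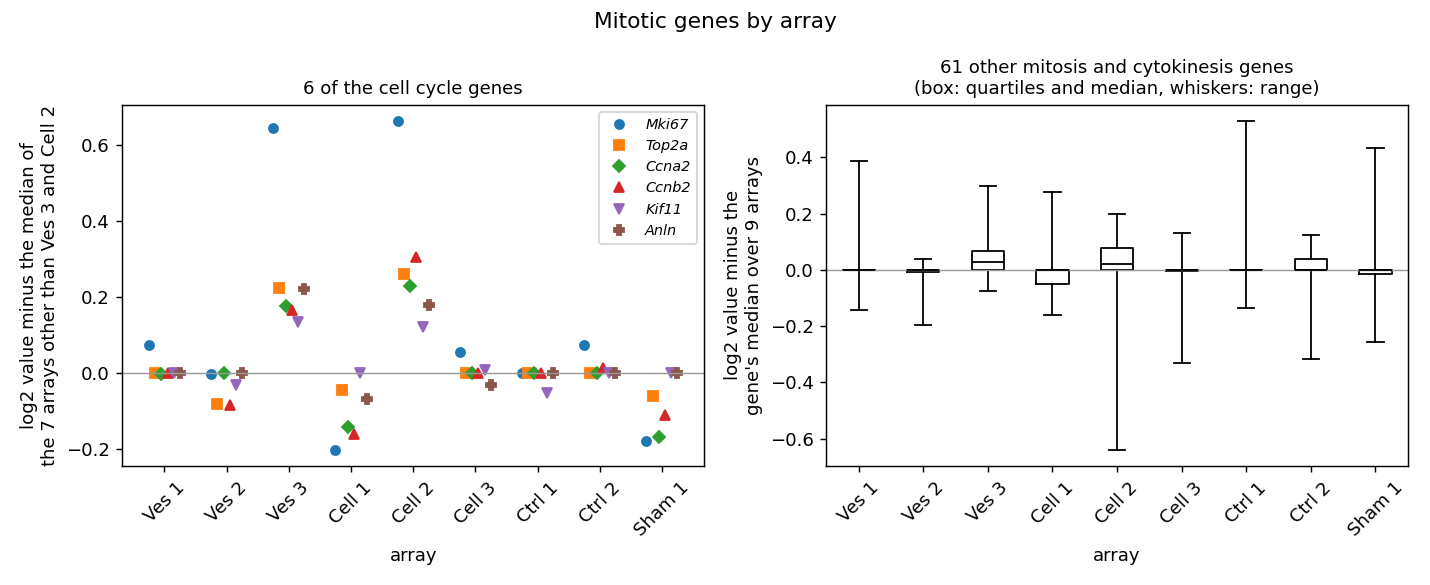
Left, log2 value minus the median of the 7 arrays other than Ves 3 and Cell 2 for 6 cell cycle genes, by array; right, log2 value minus the gene's median for 61 other mitosis and cytokinesis genes, with boxes for quartiles and median and whiskers for the range. On Ves 3 and Cell 2 all 6 genes are high, Mki67 most, and the boxes of the 61 genes reach up from 0: 41 genes lie above their median on Ves 3 and 39 on Cell 2, against 28 on Ctrl 2, with the rest at or below it.

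Macrophage markers were also high on these 2 arrays, but not only there. The mean deviation of 5 markers (Cd68, Adgre1, Csf1r, C1qa and Lyz2) was 0.24 log2 units on Ves 3, 0.16 on Cell 2, 0.25 on Ctrl 2 and between −0.27 and 0.06 on the other 6 arrays. Of these 5 markers, 2 exceeded the 95th percentile of the controls on all 9 arrays. T and NK lymphocyte markers had a mean deviation of −0.01 on Ves 3, 0.02 on Cell 2 and 0.13 on Ctrl 2, and B lymphocyte markers −0.01, −0.03 and 0.15. Lung markers had a mean deviation of 3.04 on Ves 3 and −0.47 on Cell 2, and 0 of 4 exceeded that percentile on all 9 arrays. The part of these cell types in the values of the dividing-cell genes was not tested.

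Vesicle hearts were compared with medium hearts to ask what the vesicles had left after 6 weeks. In limma's fit with the experiment as a block, 0 of 32 cell cycle genes passed at an adjusted p of 0.05, as did 0% of all genes. Their adjusted p-values lay between 0.675 and 1. At an unadjusted p under 0.05, 0 of 32 members were found, against 6.44% of all genes, and least squares without moderation called 0 members and 4 genes in all. Log2 differences ran from −0.047 for Plk1 to 0.15 ± 0.28 (SE) for Mki67. Of the members 17 were higher and 15 lower after vesicles, with a median of 0.0011, against 39.1% higher and a median of −0.012 over all genes. The split was 23 and 9 after quantile normalization and 28 and 4 with arrays centred on their medians, and all genes moved the same way (50.1% and 56.8% higher). No member had Ves and Ctrl arrays that did not overlap, against 3.72% of all genes for higher and 7.17% for lower. Without Ves 3 the split was 11 higher and 20 lower. Without Ctrl 1 the fit called 823 genes and 0 members.

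Cell hearts were compared with medium hearts in the same way. Again 0 of 32 members passed (adjusted p from 0.682), as did 0% of all genes. Only Aurkb, the kinase of the chromosomal passenger complex, had an unadjusted p under 0.05, or 1 of 32 against 6.73% of all genes. It had 5.14, 5.22 and 5.22 on Cell arrays against 5.22 and 5.29 on Ctrl arrays, a log2 difference of −0.068 ± 0.025 (SE, limma unadjusted p = 0.0434, adjusted p = 0.682), and the groups touched at 5.22. It was −0.038 after quantile normalization and with centred arrays (unadjusted p = 0.276 and 0.298). Least squares without moderation called 0 members. The widest gap was that of Cdkn1a, 0.35 ± 0.25 (adjusted p = 0.729), and Mki67 stood at 0.083 ± 0.28 (adjusted p = 0.975). Of the members 20 were higher and 12 lower, with a median of 0.0099, against 44.2% higher and a median of −0.0064 over all genes. The split was 24 and 8 after quantile normalization and 28 and 4 with arrays centred on their medians, when 49.8% and 65.5% of all genes were higher. Without Cell 2 it was 13 higher and 19 lower. Without Ctrl 1 the fit called 901 genes and 0 members. Ccne1, the cyclin of the G1 to S transition, was the only member whose Cell arrays all lay below the Ctrl arrays (5.57% of all genes did), at 5.07, 5.03 and 5.07 against 5.09 and 5.08, and 0 members had all Cell arrays above (3.20% of all genes).

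Between the treatments, vesicles against cells, 0 of 32 members passed in limma's fit (adjusted p from 0.920), as did 0% of all genes, and 0 had an unadjusted p under 0.05 (4.34% of all genes). Least squares without moderation called 0 members. The largest difference was in Cdkn1a, −0.35 ± 0.22. The fit counted 12 members as higher and 19 as lower after vesicles than after cells, with a median of −0.0037 (46.0% of all genes were higher). Among the 19 is Mcm2, whose values were equal on all Ves and Cell arrays. Ccne1 was the only member whose Ves arrays all lay above the Cell arrays (1.85% of all genes did), and 0 members had Ves arrays all below (2.56%). The 3 treatment comparisons share arrays. For Mki67 the standard errors were 0.25 to 0.28 log2 units, larger than each of its fitted differences between treatments.

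For Cdkn1a and Cdkn1b, 2 of the 3 Cip/Kip inhibitors, the injected arrays of the 2 experiments did not overlap. Of the 32 members 1 lay wholly above and 2 wholly below in experiment 9, against 4.18% and 2.74% of all genes. Cdkn1a, which encodes the p53-induced inhibitor p21 (probe set TC1700000496.mm.1), had 7.81 on Ves 1, 7.51 on Cell 1 and 7.57 on Ctrl 1 in experiment 9, against 8.19 and 8.22 on Ves 2 and 3, 8.74 and 9.02 on Cell 2 and 3 and 8.30 on Ctrl 2 in experiment 1. The injected arrays of the experiments did not overlap, and Cell 2 and Cell 3 were the highest of all. The Sham array, also of experiment 9, had 8.18, just under the lowest array of experiment 1. The fitted difference was −0.84 ± 0.20 log2 units, or 0.559-fold, in experiment 9 (limma unadjusted p = 0.0074, adjusted p = 0.296). It did not pass the threshold over all genes.

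Cdkn1b, which encodes the quiescence inhibitor p27, ran the other way. It had 6.67, 6.86 and 6.73 on Ves 1, Cell 1 and Ctrl 1, against 6.57 and 6.51 on Ves 2 and 3, 6.44 and 6.51 on Cell 2 and 3 and 6.53 on Ctrl 2. The injected arrays again did not overlap, but the Sham array of experiment 9 had 6.57, the same value as Ves 2 of experiment 1. Cdkn1b stayed below the 95th percentile of the controls on every array. Its difference of 0.24 ± 0.055 did not pass (limma unadjusted p = 0.0071, adjusted p = 0.295). Cdkn1c, which encodes the inhibitor p57, had 7.35, 7.20 and 7.20 in experiment 9, 7.07, 7.12, 7.15, 7.22 and 7.23 in experiment 1 and 7.28 on the Sham array. Its experiments overlapped (0.093 ± 0.061, adjusted p = 0.528).

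**Figure D4:**
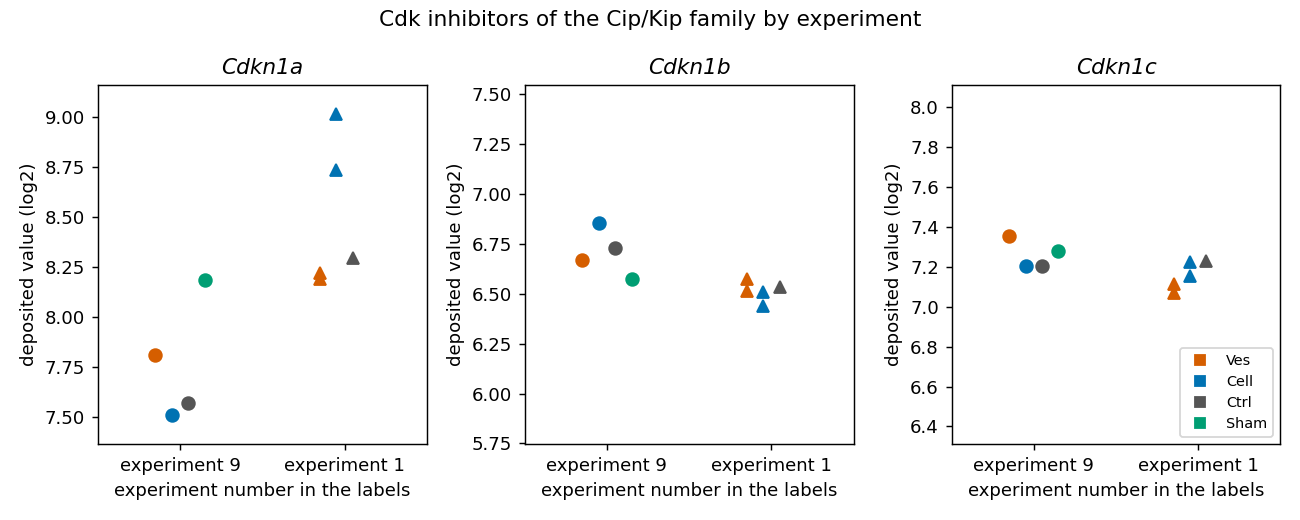
Deposited log2 values of Cdkn1a, Cdkn1b and Cdkn1c (vertical axes of equal span) by experiment number, with colour for the group. The injected arrays of experiment 9 lie at 7.51 to 7.81 for Cdkn1a, below the 8.19 to 9.02 of experiment 1, and the Sham array at 8.18.

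Within experiment 9, Cdkn1a was 0.24 above Ctrl 1 on Ves 1, 0.063 below it on Cell 1 and 0.61 above it on the Sham array, the largest of the 32 differences between Sham 1 and Ctrl 1. Within experiment 1, Ves 2 and Ves 3 were 0.10 and 0.077 below Ctrl 2, and Cell 2 and Cell 3 were 0.44 and 0.72 above it. The sign of the difference between Cell and Ctrl arrays differed between the experiments, but the interaction of −0.65 ± 0.23 did not pass (limma adjusted p = 0.345).

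Across all members, 5 of 32 had an unadjusted p under 0.05 between the experiments, against 12.8% of all genes, and 0 passed after adjustment, as did 0% of all genes. The 5 were Cdkn1a, Cdkn1b, Aurkb (−0.057 ± 0.020), Cdk2, the S phase kinase (0.087 ± 0.034), and Cdk4, the partner of D cyclins (0.030 ± 0.011). The values of Aurkb and Cdk4 depended on the processing. Cdk4 stood at 0.0049 (limma unadjusted p = 0.821) after quantile normalization and at 0.013 (unadjusted p = 0.616) with the Sham array pooled with Ctrl. Aurkb stood at −0.024 after quantile normalization (unadjusted p = 0.391) and with centred arrays (unadjusted p = 0.3998). Cdk2 had 6.40, 6.32 and 6.35 on Ves 1, Cell 1 and Ctrl 1, against 6.32, 6.32, 6.20, 6.33 and 6.22 on the Ves, Cell and Ctrl arrays of experiment 1. Cdk4 had 7.87, 7.87 and 7.84 on Ves 1, Cell 1 and Ctrl 1, against 7.84 on Ves 2, Ves 3, Cell 2 and Cell 3 and 7.82 on Ctrl 2, and 7.74 on the Sham array. Both sets overlapped or touched. Besides Cdkn1b, 0 members lay wholly above in experiment 9 (4.18% of all genes), and Aurka and Cdkn1a lay wholly below (2.74%), Aurka by less than the second decimal. Least squares without moderation called 0 members and 2 genes in all. Of the members 24 were lower and 8 higher in experiment 9, with a median of −0.040, against 40.7% of all genes higher. With arrays centred on their medians 17 were lower and 15 higher (66.3% of all genes higher), and after quantile normalization 19 and 13 (52.8%). Macrophage markers were lower in experiment 9 beside this, 4 of 5 with an unadjusted p under 0.05 and a median of −0.27, and heart muscle markers higher, 4 of 5 with a median of 0.072, while 0 of either list passed after adjustment. Their part in the result was not tested.

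The dependence of the treatment differences on the experiment was tested with an interaction term. In both contrasts 0 of 32 members passed after limma's adjustment, as did 0% of all genes (smallest adjusted p 0.135 among members), and 4 of 32 had an unadjusted p under 0.05, against 18.1% of all genes for vesicles and 18.8% for cells. They were Mcm2 and Pcna, which act at the replication fork, and Cdc25c, the phosphatase that activates Cdk1, in both contrasts, with Cdkn1c for vesicles and Birc5 for cells. Ctrl had a single array in each experiment, and the interaction fit left 2 residual degrees of freedom. For Mcm2 the interaction was 0.056 in both contrasts. Its values were equal on all Ves and Cell arrays, so this is only the gap between Ctrl 1 and Ctrl 2. For Pcna the array that stood out was Ctrl 2, at 6.61 against 6.70 to 6.74 on the other arrays, which both contrasts share. Mcm2 had 6.29 on all Ves and Cell arrays, 6.28 and 6.33 on Ctrl arrays and 6.25 on the Sham array. Cdc25c had 3.42, 3.40 and 3.42 on Ves arrays, 3.42 on each Cell array, 3.42 and 3.47 on Ctrl arrays and 3.42 on the Sham array. Birc5 had 5.49 on Cell 1 and 5.45 on the other arrays. Mcm2, Pcna, Cdc25c and Birc5 each ranged over at most 0.13 log2 units across the 9 arrays. Cdkn1c ranged over 0.29, and its interaction for vesicles was 0.29 log2 units. Ves 1 was 0.15 above Ctrl 1 for Cdkn1c, and Ves 2 and Ves 3 were 0.16 and 0.11 below Ctrl 2.

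In the D-type cyclin system of G1, Ccnd2 and Cdk4 were above the 95th percentile of the controls on all 9 arrays, Ccnd3 on 2 and Cdk6 on 0, and each ranged over less than 0.25 log2 units. Ccnd2, cyclin D2, had 8.93, 9.11 and 9.04 on Ves arrays, 9.17, 8.96 and 9.05 on Cell arrays, 9.06 and 8.99 on Ctrl arrays and 9.13 on the Sham array. The groups overlapped, and the differences from Ctrl were 0.0084 ± 0.083 after vesicles and 0.043 ± 0.083 after cells. Ccnd3, cyclin D3, lay between 7.07 and 7.22, and Cdk6, the other partner of D cyclins, between 6.89 and 7.07. Cdk4 was within 7.74 to 7.87, its lowest value being that of the Sham array. Ccne1 and Ccne2, the E cyclins, ranged over only 0.06 and 0.03 log2 units.

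Replication genes were flat apart from Mcm6. Mcm6, a subunit of the MCM helicase, had 5.03, 5.23 and 5.12 on Ves arrays, 4.85, 5.32 and 4.95 on Cell arrays, 5.03 and 4.96 on Ctrl arrays and 5.01 on the Sham array. Its groups overlapped, with Cell 2 highest and Ves 2 next. The other 6, the helicase subunits Mcm2, Mcm3 and Mcm5, the sliding clamp Pcna, and Rrm2 and Tyms, which supply nucleotides, each ranged over at most 0.14 log2 units. Among the mitotic regulators, Cdc20, Cdc25c, Aurka, Aurkb, Bub1, Bub1b and Birc5 likewise ranged over 0.18 or less.

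The Sham heart was compared with Ctrl 1, the medium array of its experiment, by value only. On the Sham array 7 members were higher than on Ctrl 1, 18 lower and 7 equal, against 38.8% higher and 40.9% lower among all genes. The largest drop was in Mki67, 5.76 on Sham 1 against 5.94 on Ctrl 1. Cell 1, of the same experiment, was lower still at 5.74.

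The other cell cycle lists gave no call in any of the 4 contrasts. None of 18 regulators, 5 INK4 and related inhibitors, 29 replication genes, 61 mitotic genes and 12 p53 pathway genes measured passed limma's adjusted threshold, as with all genes. Unadjusted p-values under 0.05 after vesicles were found for 1 of 18 regulators, Lin9 of the MuvB core (−0.083 ± 0.032), 1 of 29 replication genes, Chaf1a, a subunit of the chromatin assembly factor (−0.083 ± 0.019), and 1 of 12 p53 pathway genes, Sesn1 (0.12 ± 0.031), against 6.44% of all genes. After cells they were found for 1 of 29 replication genes, Chaf1a (−0.096 ± 0.019), 1 of 18 regulators, Rbbp4 (0.049 ± 0.018), 1 of 61 mitotic genes, Cks2, the Cdk subunit (−0.085 ± 0.030), and 1 of 12 p53 pathway genes, Phlda3 (−0.11 ± 0.042), against 6.73% of all genes. Between the experiments, the 3 genes of lowest p in each of these 5 lists were compared. The largest difference among them was that of Wee1, the kinase that restrains Cdk1 (0.55 ± 0.15, limma adjusted p = 0.334). Sesn1 had the smallest p of the p53 pathway list (0.19 ± 0.025, limma adjusted p = 0.212). Of the 12 p53 pathway genes, 3 had a positive and 1 a negative difference at that unadjusted level, against 12.8% of all genes in either direction. So did 2 and 1 of 18 regulators, 1 and 2 of 29 replication genes and 2 and 2 of 61 mitotic genes. Of the 61 mitotic genes 8 were higher in experiment 9, with a median of −0.027, against 40.7% of all genes higher. This split was not repeated under other scalings, and 59 of the 61 stayed below the controls' 95th percentile on every array.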

How the data were processed

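Per the labels' protocols, Trizol RNA of whole frozen hearts was turned into biotinylated cDNA for the array. Each deposited value is a log2 summary of a probe set, a scale inferred from the range of 1.55 to 14.2. How the authors corrected, summarised and normalized the deposited log2 values was not stated in the labels. The submitters' processing notes list Partek, with neither version nor role. Of 80202 probe sets, 10553 are negative controls. The platform annotation pairs 30604 with 1 gene symbol. A further 2146 carry several and were left out, and 827 symbols were updated through Entrez numbers (RefSeq, GRCm38.p6). Per gene the probe set with the highest mean was kept, which left 30142 genes.

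The 8 injected arrays were fitted with limma 3.58.1 in R 4.3.3 (lmFit, eBayes; 1 mean per treatment, experiment as a block; 4 residual degrees of freedom), two-sided, with Benjamini-Hochberg adjustment over all genes and a threshold of 0.05. Replicate numbers were given in accession order and pair no arrays. Errors after ± are standard errors. Members above the control percentile on all arrays, members with an unadjusted p under 0.05, and Mki67, Top2a, Cdk1 and Plk1 were given by array, with up to 3 genes per other list and contrast by lowest p. The fit was tested on simulated normal values, which hold no ties, so that test does not cover the tied values described above. The members and lists were chosen with earlier results of these data known. Arrays have no read depth, and their number limits the precision. Alternatives are described in the closing section.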

Additional observations from a re-analysis of the deposited data

How the results depend on the processing

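No paired analysis was possible by replicate number because the replicate numbers follow accession order and the titles give every array the same one. The VTS number, which matches some arrays across treatments, was run as a block in place of the experiment: 0 genes were called in the 3 treatment contrasts, and the members' median was −0.000475 for vesicles, 0.0043 for cells and −0.0037 for vesicles against cells. Under every alternative run, 0 cell cycle genes were called in the 4 contrasts. The number of genes called overall was 0 except that it was 4 (vesicles against control) and 2 (experiments) by least squares without moderation, 1 for cells against control with the Sham array pooled with Ctrl, and, without Ctrl 1, where the single remaining Ctrl array is taken to vary as the treated ones do, 823 for vesicles and 901 for cells (range 0 to 823 and 0 to 901 when leaving out 1 array); the cause was not tested. The members' median difference moved by more than its spread between arrays, 0.0095, as follows. After quantile normalization it was 0.019 for vesicles, 0.028 for cells and −0.017 between experiments; with centred arrays 0.022, 0.040 and −0.0069. With the 4 members left by the filter on negative controls it was 0.035 for cells, −0.024 between treatments and 0.028 between experiments. On leaving out 1 array it ran from −0.016 to 0.012 for vesicles, from −0.0084 to 0.025 for cells, from −0.0096 to 0.0073 for vesicles against cells and from −0.048 to −0.026 between experiments. Without Ves 3 and Cell 2, chosen after seeing the data, it was −0.0033 for cells and −0.017 between experiments. Members above the controls on all arrays numbered 7 at the 90th percentile, 1 at the 99th and 13 against the median of all genes. The difference of Cdkn1a between experiments kept its sign in 18 settings, from −1.09 to −0.54 (adjusted p 0.127 or more), and that of Cdkn1b in 17. Both stayed under an unadjusted p of 0.05 in all of these. Cdk2, Cdk4 and Aurkb kept their sign, but lost that level in 9 of 17, 12 of 18 and 10 of 16 settings, and Aurkb after cells in 13 of 18. The filters, scalings and array exclusions could not show whether values under the controls' 95th percentile reflect expression.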
